A study of Mus musculus with 8 samples.

Results

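Described here are 66 genes of the splicing machinery and the heterogeneous nuclear ribonucleoprotein (hnRNP) families, out of 17823 genes in the deposited table, compared between macrophages positive and negative for a reporter of the cytokine gene Il19. Members were the genes whose symbol starts with Srsf, Hnrnp, Snrp, Sf3a, Sf3b, U2af or Prpf and that had 10 or more counts in at least 4 libraries. The symbols alone match 67 genes. Snrpn, with 0 to 8 counts per library, was left out by the count rule, and the member with the lowest counts, Snrpf, had 174 to 369. All 66 members were among the 12610 genes that could be tested. They fall into 10 Srsf, 20 Hnrnp, 11 Snrp, 9 Sf3a and Sf3b, 3 U2af and 13 Prpf genes.

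The libraries were made from polyadenylated RNA of bone-marrow-derived macrophages of C57BL/6 mice, grown with M-CSF for 7 days and stimulated with 1 µg/ml lipopolysaccharide, a component of the bacterial outer membrane. The cells carry a tdTomato (tdT) reporter of Il19, and 4 libraries are labelled tdT positive and 4 tdT negative, with numbers 1 to 4 in both groups. Strain, M-CSF and lipopolysaccharide are given alike for both groups, so the labels separate them by reporter state alone. The labels call the libraries biological replicates without saying whether each is a separate mouse or culture, so p-values cover no more than the spread among these libraries. No source used here says how the tdT-positive cells were separated from the tdT-negative ones. Il19 itself checks the labels: it stood at 185 ± 36.6 CPM (counts scaled to a common library size; SD, n = 4) in the positive and 12 ± 3.45 CPM in the negative libraries (log2 fold change 3.95, adjusted p = 0.000594, edgeR quasi-likelihood test), with no overlap. Each library held between 49850537 and 58516454 counts, and the members together took 0.501 ± 0.0309% of the counts in the positive and 0.538 ± 0.0263% in the negative libraries (SD, n = 4). These shares are of all counts, including ribosomal RNA. The lowest, 0.459%, was that of positive library 3, where the ribosomal RNA precursor Rn45s alone held 6115229 of 49850537 counts.

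Splicing removes introns from precursor RNA in the spliceosome, which is built from small nuclear ribonucleoproteins (snRNPs) and many associated proteins. SR proteins, the products of the Srsf genes, bind exons and mostly favour their inclusion, and hnRNP proteins coat the nascent RNA and often act against it. Snrp genes code for the core and specific proteins of the snRNPs, U2af and Sf3 genes for the factors that recognise the 3′ splice site and the branch point, and Prpf genes for factors that assemble, drive and remodel the spliceosome. In macrophages stimulated with lipopolysaccharide, splicing of newly made inflammatory transcripts is a regulated step, and several of these proteins are known to be phosphorylated.

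Differences between the groups were small throughout this set. No member passed the test with the group as its only term (edgeR, adjusted p of 0.05, adjusted over all genes tested), where 3 of 12610 genes did (0.0238%). At an unadjusted p under 0.05, 6 of the 66 members were counted (9.09%; Srsf4 higher, and Snrpa1, Snrpb2, Snrpd3, Snrpf and U2af1 lower) against 16.3% of all genes (7.51% higher and 8.81% lower). By other tools, limma voom called 0 members, and the DESeq2 Wald test called 1, Snrpb2 (adjusted p = 0.0427), where 7.34% of all genes were called. Libraries of the same number deviated together, so the number was also fitted as a block. In that fit 5 members passed (7.58%), less than the 15.8% of all genes. Srsf3, Hnrnpc, Snrpa1 and Snrpd1 fell in the tdT-positive libraries and Prpf40b rose. Over all genes, 1013 were higher and 985 lower; with library totals in place of trimmed-mean (TMM) scaling the split was 422 higher and 996 lower, and 5 members were called, all lower. These were Srsf3, Hnrnpc and Snrpa1 again, with Hnrnpab and Prpf38a, while Snrpd1 and Prpf40b did not pass. No member differed by more than 1.5-fold, where 10.8% of all genes did. Members also spread less within the groups than all genes (median SD of log2 CPM 0.145 against 0.229). Their median level was higher, at 24.3 against 6.58 CPM per kilobase of gene length, so the shares are not those of genes alike in level. The fitted differences of all members lay between -0.39 and 0.35 on the log2 scale (positive against negative, as in every log2 fold change below), with a median standard error of 0.0728.

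**Figure D1:**
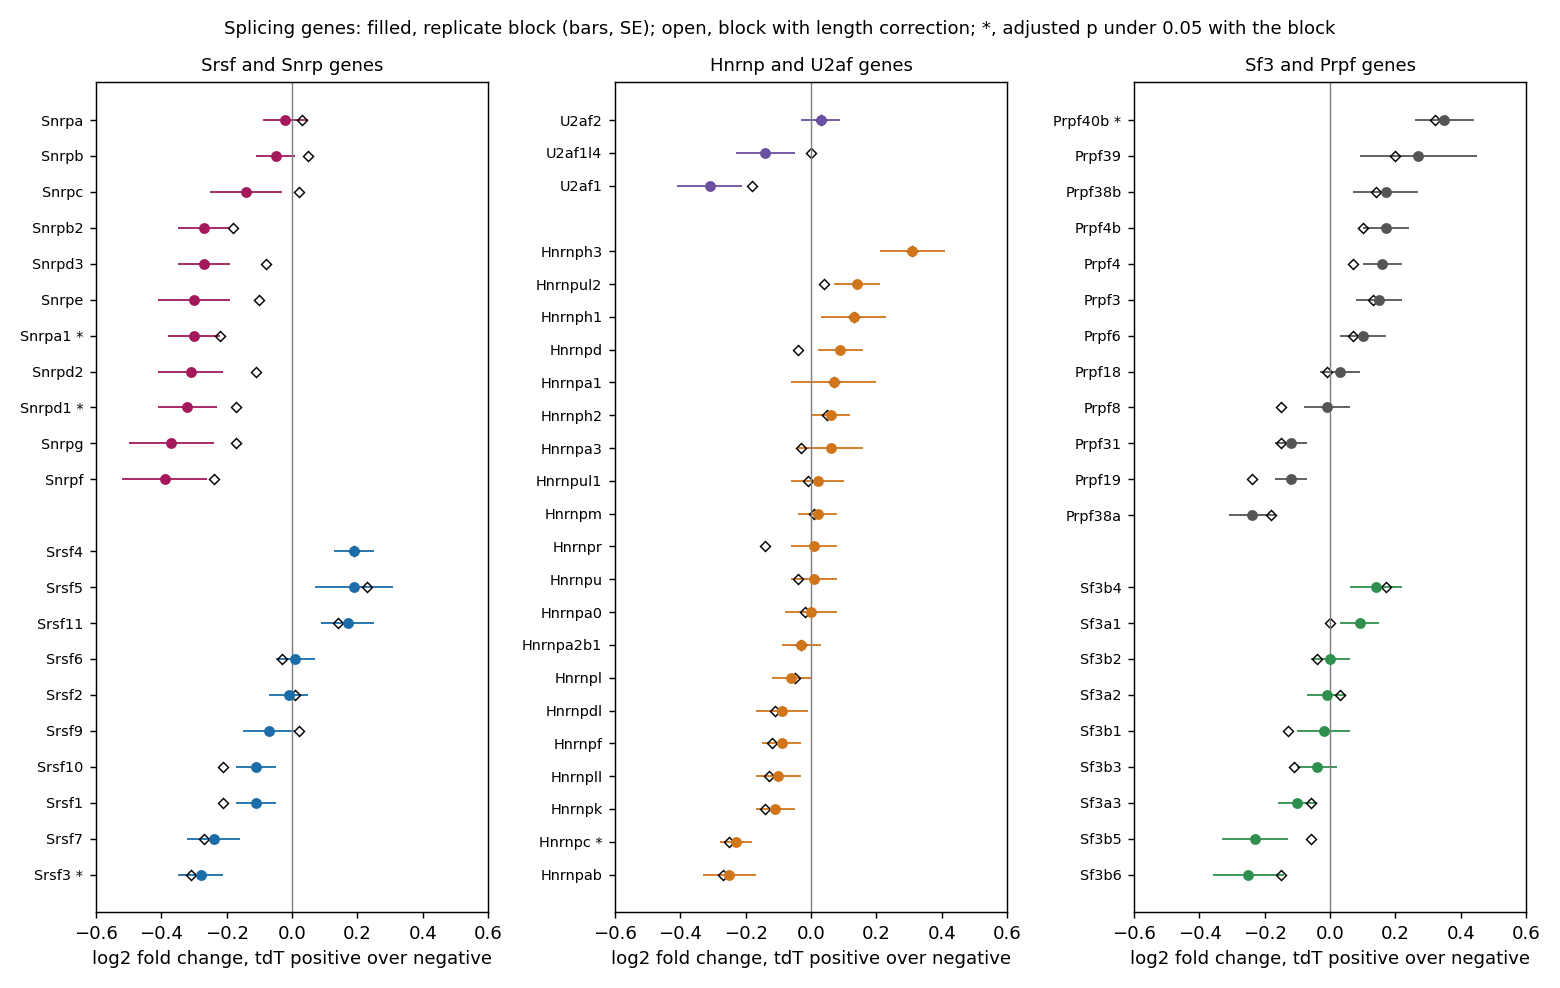
Log2 fold change (tdT positive against tdT negative, horizontal axis) of 65 of the 66 members in the fit with the replicate block, grouped by subfamily; filled points and bars show the estimate and its standard error, open diamonds the estimate with length corrected, and asterisks an adjusted p under 0.05 with the block. All 11 filled Snrp points lie below 0, between -0.39 and -0.02, while the other subfamilies lie on both sides of 0.

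The 5 calls of the blocked fit depended on which numbers were in it. Leaving out both libraries of number 1 left 0 members called (7.99% of all genes), leaving out number 2 left 0 (2.76%), and leaving out number 3 left 1 (2.80%), Prpf39, which was not among the 5. Without number 4, 13 members passed (20.2% of all genes), including all 5. Of these 13, 12 were lower and 1, Prpf40b, was higher.

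Promoters of genes that every cell uses often hold short elements close to the start site, and the sequence just before it is shown for 3 of the members that fell. RefSeq (GRCm38.p6) gave a promoter for 57 of the 66 members. The windows below are those of Srsf3 (chr17:29032510-29032627, plus strand), Hnrnpc (chr14:52104040-52104171, minus strand) and Snrpa1 (chr7:66060186-66060298, plus strand), 5′ to 3′ along the gene. They leave out bases nearest to the RefSeq start that lie in an exon of the same gene in GENCODE M21 or within the RefSeq gene. Capitals mark matches, on either strand, to the motifs searched.
Srsf3: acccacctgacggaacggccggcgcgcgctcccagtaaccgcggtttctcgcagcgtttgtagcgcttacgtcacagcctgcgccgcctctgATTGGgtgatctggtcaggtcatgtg
Hnrnpc: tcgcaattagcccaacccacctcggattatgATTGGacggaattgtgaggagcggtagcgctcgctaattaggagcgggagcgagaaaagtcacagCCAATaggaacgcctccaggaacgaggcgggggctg
Snrpa1: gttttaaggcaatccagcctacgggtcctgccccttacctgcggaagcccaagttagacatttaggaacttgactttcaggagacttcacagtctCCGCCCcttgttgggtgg

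The motifs were the CCAAT box (CCAAT), the GC box (GGGCGG), the TATA box (TATAAA), the E-box (CACGTG) and an ETS motif (CCGGAAG); none of them contains another. With the base before the RefSeq start counted as -1, the CCAAT match of Srsf3 begins at -58, those of Hnrnpc at -119 and -54, and the GC box of Snrpa1 at -55. Over the full 250 bases before the start, the GC box was present in 68.4% of the 57 members with a promoter and in 35.4% of 27025 genes, and the ETS motif in 31.6% and 7.83%. CCAAT was found in 49.1% of members against 37.5% of genes, CACGTG in 12.3% against 6.86% and TATAAA in 8.77% against 14.3%. Median GC content of these windows was 60.4% for members and 52.4% for all promoters, so the members' promoters were richer in the letters that the GC box and the ETS motif use. The 27025 genes are all those with a RefSeq promoter, whether or not they were expressed in these cells. A comparison with expressed genes alone was not made, so the gaps cannot be read as particular to splicing genes. Of the 9 Snrp genes with a promoter, 5 held the GC box, 3 CCAAT and 3 the ETS motif, so no searched motif was shared by all of them. These are matches of letters, not measured binding sites.

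Of the 10 SR protein genes, 1 fell in the blocked fit and none rose, where 7.81% of all genes fell and 8.03% rose. Srsf3 codes for a small SR protein that also takes part in mRNA export; it lies at chr17:29032660-29043372. Its level in tdT-positive libraries 1 to 4 was 66.6, 61.1, 73.7 and 59.8 CPM, and in tdT-negative libraries 76.8, 74.9, 105 and 64.4 CPM. Every positive library was lower than the negative library of its number, but the ranges overlapped. Number 3 was the highest in both groups. The log2 fold change was -0.28 ± 0.07 (SE) with an adjusted p of 0.0460 in the blocked fit, against an adjusted p of 0.369 without the block. Srsf7, the closest relative of Srsf3 among the SR proteins (chr17:80200080-80207369), gave the same picture at 66.9, 60.2, 75.8 and 59.6 CPM in the positive and 68.7, 71.5, 106 and 68.4 CPM in the negative libraries. It did not pass (-0.24 ± 0.08, adjusted p = 0.0773).

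Srsf4 (chr4:131873530-131901725), a larger SR protein, went the other way. It stood at 25.4, 25.3, 25.9 and 27.4 CPM in the positive and 21.8, 22.9, 22.7 and 23.5 CPM in the negative libraries, a narrow difference with no overlap between the groups. The estimate was 0.19 ± 0.06 and the adjusted p 0.0735 with the block and 0.226 without. The exact two-sided permutation p of this single gene was 0.0286, the smallest that 70 splits can give. Any gene whose groups do not overlap has this value, so it adds nothing to the absence of overlap. Of all 66 members, 7 had groups that did not overlap (10.6%), close to the 11.4% of all genes: Srsf4, Hnrnpul2 and Prpf3 were the higher ones and Snrpa1, Snrpb2, Snrpd3 and U2af1 the lower ones, against 5.47% and 5.91% of all genes. Srsf2, which binds exonic enhancers and is the SR gene with the highest level per length (67.5 RPKM, which is CPM per kilobase of the listed gene length), differed by -0.01 ± 0.06. The remaining SR genes spanned -0.11 (Srsf1 and Srsf10) to 0.19 (Srsf5), and the median of the 10 was -0.04.

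Srsf5 and Srsf11 showed a pattern across libraries that the group labels did not order. Srsf5, an SR protein whose RNA is known to respond to growth signals, stood at 86.5, 80.3, 64.5 and 87.8 CPM in the positive and 65.1, 62.2, 80.0 and 72.1 CPM in the negative libraries. Srsf11 (chr3:158010915-158036667), at 82.9, 76.0, 65.4 and 89.7 against 64.2, 68.0, 70.7 and 73.8 CPM, was likewise higher in the positive library for numbers 1, 2 and 4 and lower for number 3. Neither passed the test (blocked estimates 0.19 ± 0.12 and 0.17 ± 0.08). These signs over the numbers were shared by 9 of the 66 members (13.6%; 5.89% of all genes), the other 7 being Srsf6, Hnrnph1, Hnrnph3, Hnrnpa3, Prpf4b, Prpf38b and Prpf39.

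Among the 20 Hnrnp genes, 1 fell and none rose in the blocked fit (7.81% and 8.03% of all genes), and the median difference was 0.01. Hnrnpc, whose product binds uridine tracts and is known to keep cryptic exons out of mRNA, lies at chr14:52073377-52104039. It stood at 78.8, 80.5, 99.7 and 87.8 CPM in the positive and 94.3, 96.6, 111 and 103 CPM in the negative libraries. The positive library was lower in all 4 numbers, and the ranges overlapped only through positive library 3. Hnrnpc fell by 0.23 ± 0.05 on the log2 scale in the blocked fit (adjusted p = 0.0325; 0.309 without the block). Hnrnpab, an RNA-binding protein related to Hnrnpd (chr11:51600100-51606881), had 144, 158, 200 and 147 CPM against 171, 190, 204 and 205 CPM and was also lower in all 4 numbers (-0.25 ± 0.08, adjusted p = 0.0743).

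The most abundant member of all, Hnrnpa2b1 (chr6:51460434-51470048), which binds both pre-mRNA and exported transcripts, stood at 133 RPKM. At 330, 318, 308 and 312 CPM in the positive and 324, 337, 330 and 300 CPM in the negative libraries, it showed no separation of the groups (-0.03 ± 0.06). Hnrnpu, a nuclear scaffold protein and the third most abundant member at 91.1 RPKM, gave 0.01 ± 0.07. Hnrnph3 (chr10:63014664-63023980), a splicing regulator that binds guanine-rich RNA, had the largest positive estimate of the family at 0.31 ± 0.10, with 11.1, 11, 11.8 and 16.9 CPM against 7.85, 8.86, 12.1 and 12.3 CPM. It did not pass (adjusted p = 0.0894), and positive library 4 stood well above the other 3. Hnrnpul2 (chr19:8819401-8834143), related to Hnrnpu, was at 216, 203, 217 and 209 CPM against 202, 202, 177 and 185 CPM, higher in all 4 numbers (0.14 ± 0.07, adjusted p = 0.188).

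**Figure D2:**
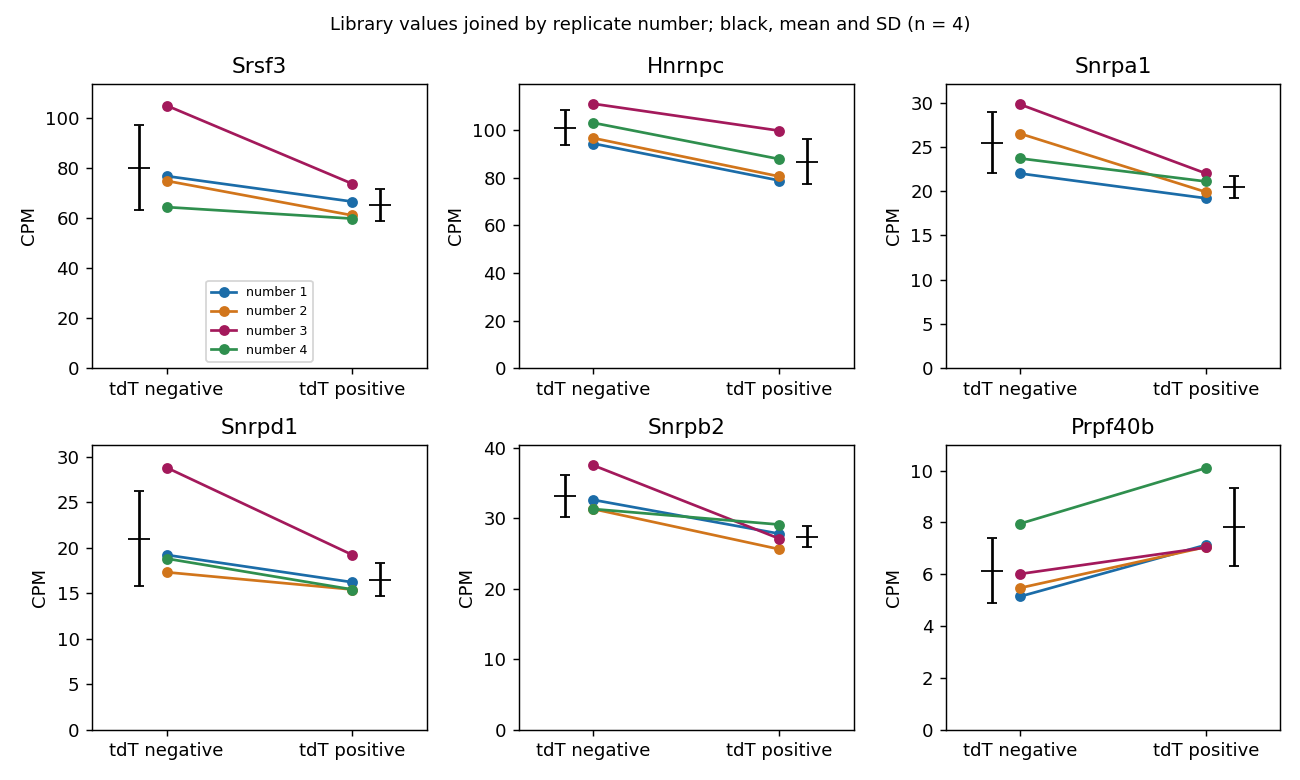
TMM-scaled CPM of 6 members in each of the 8 libraries (vertical axes, from 0), with libraries of the same number joined by a line and the mean and SD of each group in black (n = 4). Srsf3, Hnrnpc and Snrpa1 run downward from negative to positive in all 4 numbers, with number 3 the highest negative library in each.

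The Snrp genes were the one subfamily whose members all lay on one side. All 11 had log2 fold changes below 0 (median -0.30, range -0.39 to -0.02), against 49.2% of all genes below 0 and a median of 0.01. The test called 2 of the 11 lower (18.2%), Snrpa1 and Snrpd1, in the blocked fit. In that fit 7.81% of all genes were called lower, and 11% of all genes in the length range of the Snrp genes. Snrpa1 codes for the A′ protein of the U2 snRNP (chr7:66060336-66074587). Its levels were 19.2, 19.9, 22.0 and 21.1 CPM in the positive and 22.0, 26.5, 29.8 and 23.7 CPM in the negative libraries, and the highest positive value lay just under the lowest negative one. The difference was -0.30 ± 0.08 (adjusted p = 0.0364; 0.202 without the block).

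Snrpd1 codes for a subunit of the Sm ring, the collar of proteins that is assembled around the snRNA of most snRNPs. It stood at 16.2, 15.4, 19.2 and 15.4 CPM against 19.2, 17.3, 28.8 and 18.8 CPM, and fell by 0.32 ± 0.09 on the log2 scale in the blocked fit (adjusted p = 0.0447; 0.356 without the block). Negative library 3, at 28.8 CPM, was far above the other 3 negative libraries. Snrpb2 (chr2:143063069-143072052), which codes for the B″ protein of U2, the partner of A′, had 27.8, 25.6, 27.1 and 29.1 CPM against 32.6, 31.3, 37.5 and 31.3 CPM, again without overlap, and missed the threshold of the blocked fit (-0.27 ± 0.08, adjusted p = 0.0505). Snrpd3, another Sm ring gene (chr10:75518042-75535440), had 28.1, 27.6, 32.0 and 32.6 CPM against 32.9, 32.9, 44.9 and 35.1 CPM (-0.27 ± 0.08, adjusted p = 0.0542).

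The 7 genes of the Sm ring (Snrpb, Snrpd1, Snrpd2, Snrpd3, Snrpe, Snrpf and Snrpg) had a median of -0.31, and the 4 genes of U1 and U2 proteins (Snrpa and Snrpc for U1, Snrpa1 and Snrpb2 for U2) a median of -0.21. Within the Sm ring, Snrpb stood apart. It is the Snrp gene with the highest level per length (97.9 RPKM; chr2:130171636-130179382), and its difference was only -0.05 ± 0.06. Its levels were 103, 99.4, 131 and 97.5 CPM in the positive and 106, 113, 137 and 92.2 CPM in the negative libraries, a wide overlap. Snrpa and Snrpc were higher in the positive library for 2 of the numbers and lower for the other 2. In all, 8 of the 11 Snrp genes were lower in the positive library of all 4 numbers, against 19.6% of all genes; over all members the count was 18 of 66 (27.3%).

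The Snrp genes are short, and short genes as a whole were lower in the tdT-positive libraries. The listed lengths of the 11 genes run from 393 to 1570 bases (median 813), while the median of all genes tested is 2872. Over all 2329 genes in that length range the median log2 fold change was -0.11. Of them, 69.9% were below 0 and 29.2% were lower in all 4 numbers. Their median length was 1142 bases, so in the median they were longer than the Snrp genes. The 10089 genes longer than that range had a median log2 fold change of 0.03. When the trend with length was removed from every library by a smooth curve, the median of the Snrp genes went from -0.30 to -0.11, and 8 rather than 11 remained below 0. The 2329 genes of the same length range then had a median of 0.00. Snrpa1 still passed (-0.22, adjusted p = 0.0435, block with length correction), and Snrpd1 did not (-0.17, adjusted p = 0.152). Snrpd3 moved to -0.08 and Snrpb to 0.05.

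**Figure D3:**
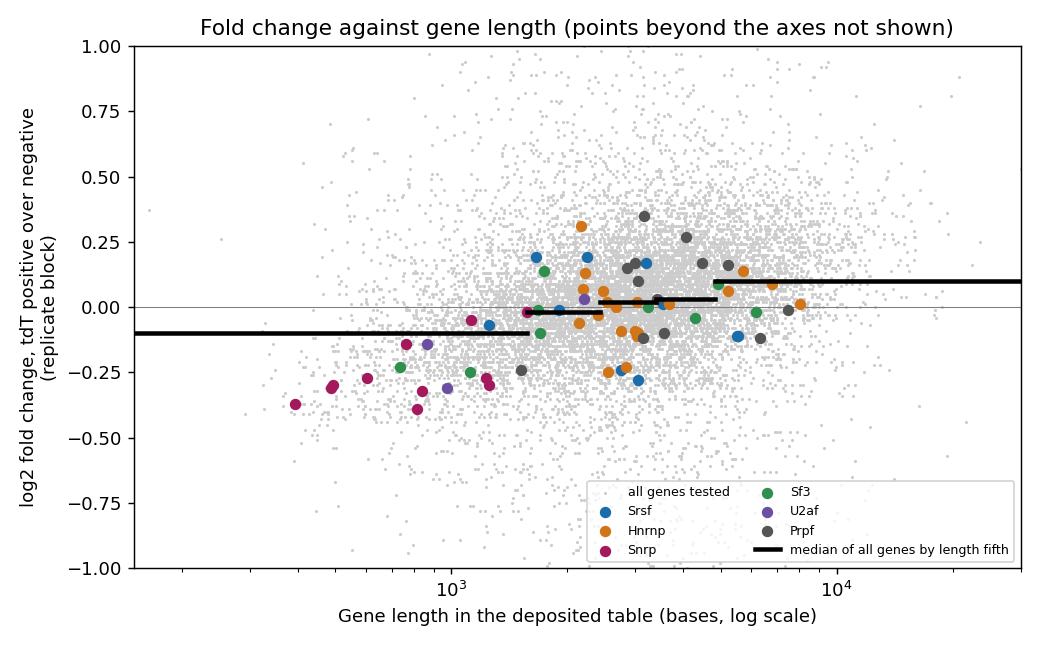
Log2 fold change in the blocked fit (vertical axis) against listed gene length in bases (horizontal log axis), for the members coloured by subfamily, all genes tested (grey) and the medians of all genes in 5 length classes (black lines). The class medians run from -0.10 in the shortest class to 0.10 in the longest, and the Snrp genes lie at the short end, most of them below the median of their class.

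Across the members, length and fold change were related, with the low values in the shortest class. Spearman's rho between the blocked log2 fold change and length was 0.49 across the 66 members and 0.22 across all 12610 genes, as descriptions across genes measured in the same 8 libraries, and after the correction these were 0.01 and -0.07. Pearson's r against log2 length was 0.56 for the members and 0.00 for all genes. Split into 5 classes of equal size, all genes had medians of -0.10 (20 to 1572 bases), -0.02, 0.02, 0.03 and 0.10 (4843 to 83437 bases). In the shortest class 10.3% of genes were called lower and 1.82% higher, and in the longest 8.37% and 18.2%. The 17 members in the shortest class had a median of -0.27, and 11 of these are the Snrp genes. In the classes between, the members had medians of 0.05, 0.00 and 0.01, with no further rise. In the longest class the 11 members had a median of 0.01, below the 0.10 of their class.

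With the block and the length correction together, 5 members passed and all were lower (7.58%; 13.4% of all genes, of which 688 or 5.46% were higher and 1004 or 7.96% lower). Srsf3 (-0.31, adjusted p = 0.0353), Hnrnpc (-0.25, adjusted p = 0.0173) and Snrpa1 were called in both blocked fits. Prpf19, the ubiquitin ligase at the centre of the complex that bears its name, and Srsf10, an SR protein that represses splicing when dephosphorylated, passed only here, at -0.24 (adjusted p = 0.0236) and -0.21 (adjusted p = 0.0427). Both are long genes, at 6333 and 5511 bases, and both were lower in the positive library of all 4 numbers before any correction. With the block alone their estimates were smaller, at -0.12 (adjusted p = 0.154) and -0.11 (adjusted p = 0.217). The correction moved the median of the members in the longest class from 0.01 to -0.13. Snrpd1 and Prpf40b were called only without the length correction. Leaving out number 1, 2 or 3 from the fit with block and length correction left 0 members called (5.15%, 3.71% and 2.33% of all genes), which ended all 5 calls, and leaving out number 4 gave 6 (15.1%), these 5 and Prpf38a. Without the block, the length correction left 0 members called.

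The 9 Sf3a and Sf3b genes, which code for the U2-associated complex that holds the branch point, had no call in either direction and a median of -0.02. The 2 lowest were the small subunits. Sf3b6, which contacts the branch point adenosine (chr12:4817608-4827659), had 46.0, 42.3, 46.4 and 49.7 CPM against 56.7, 48.6, 71.8 and 45.3 CPM (-0.25 ± 0.11, adjusted p = 0.176). Sf3b5, the smallest subunit (chr10:13008450-13009183), had 27.2, 24.8, 29.1 and 26.3 CPM against 28.5, 31.4, 41.4 and 26.0 CPM (-0.23 ± 0.10, adjusted p = 0.155). For both, negative library 3 was the highest of the 8 and number 4 went the other way, and the estimates with length corrected were -0.15 and -0.06.

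The large subunits differed less. Sf3b2, the Sf3 gene with the highest level per length (57.0 RPKM; chr19:5273921-5295457), stood at 186, 196, 180 and 174 CPM against 201, 196, 179 and 160 CPM, an estimate of 0.00 ± 0.06. Sf3b1, which forms the ring that encloses the branch helix and is mutated in myelodysplastic syndromes, gave -0.02 ± 0.08. Sf3b4 (chr3:96172506-96177564), an RNA-binding subunit, was at 20.4, 20.3, 24.9 and 21.1 CPM against 19.8, 20.8, 19.2 and 18.8 CPM (0.14 ± 0.08). Sf3a3 (chr4:124714861-124732423), a subunit of the Sf3a part, was at 41.1, 37.8, 41.5 and 40.9 CPM against 44.4, 40.5, 48.6 and 39.7 CPM (-0.10 ± 0.06). None of these estimates exceeded 0.14 in size.

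The U2af genes code for the dimer that binds the polypyrimidine tract and the 3′ splice site; none of the 3 passed. U2af1, the subunit that reads the AG at the intron end (chr17:31647081-31659148), stood at 4.33, 4.35, 4.73 and 4.77 CPM in the positive and 5.38, 5.10, 6.55 and 5.57 CPM in the negative libraries, with no overlap. Its difference was -0.31 ± 0.10 (adjusted p = 0.0828) and -0.18 with length corrected (adjusted p = 0.220). U2af1l4, a short relative of U2af1 (chr7:30563340-30565364), had 13.2, 12, 13.3 and 13.1 CPM against 13.8, 14.4, 16.2 and 12.6 CPM (-0.14 ± 0.09). U2af2, the tract-binding subunit (31.7 RPKM; chr7:5060885-5079945), had 73.0, 75.3, 64.7 and 68.7 CPM against 70.1, 76.3, 66.4 and 63.8 CPM (0.03 ± 0.06).

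The 13 Prpf genes had the highest median of the subfamilies, 0.10, with 1 gene higher and none lower in the blocked fit. Over all genes, 8.03% were higher and 7.81% lower in that fit. By number, the median Prpf difference was -0.06, 0.10, -0.01 and 0.13 for numbers 1 to 4, so its sign changed between numbers. With the block and the length correction the median was 0.07, with 1 gene lower, Prpf19, and none higher. Prpf40b, a U1-associated protein that bridges the ends of the intron (chr15:99295076-99317018), has the lowest level per length of all members (2.21 RPKM). It stood at 7.13, 7.05, 7.03 and 10.1 CPM in the positive and 5.14, 5.47, 6.01 and 7.95 CPM in the negative libraries. Number 4 was the highest in both groups, and the positive library was higher in all 4 numbers. Prpf40b rose by 0.35 ± 0.09 on the log2 scale in the blocked fit (adjusted p = 0.0395; 0.399 without the block), and with length corrected it was at 0.32 (adjusted p = 0.0550).

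Tri-snRNP and activation factors of this family moved by less than 0.3 in either direction. Prpf38a, needed for activation of the spliceosome (chr4:108564867-108579336), was at 41.7, 33.0, 32.1 and 34.6 CPM against 50.4, 41.3, 40.5 and 35.0 CPM, lower in all 4 numbers though by little in number 4 (-0.24 ± 0.07, adjusted p = 0.0685). Prpf4 (chr4:62408762-62426990), a protein of the tri-snRNP, was at 26.0, 24.5, 26.1 and 21.6 CPM against 22.1, 21.8, 23.5 and 20.2 CPM (0.16 ± 0.06, adjusted p = 0.123). Prpf4b (chr13:34874820-34906064), a kinase of the spliceosome, was at 57.0, 60.9, 47.8 and 58.4 CPM against 50, 48.8, 48.3 and 50.9 CPM (0.17 ± 0.07, adjusted p = 0.131). Prpf8, the scaffold around the catalytic centre and the Prpf gene with the highest level per length (33.4 RPKM; chr11:75486777-75509447), was at 257, 272, 251 and 219 CPM against 280, 254, 226 and 243 CPM, with no difference beyond its spread (-0.01 ± 0.07).

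Negative library 3 bore on the Snrp values more than any other library. Against the mean of the 8 libraries, the median Snrp gene was 0.45 higher there on the log2 scale, and between -0.26 and 0.03 in the other 7. All genes of the Snrp length range had a median of 0.28 in that library and the longer genes -0.04. By number, the median Snrp difference was -0.18, -0.27, -0.49 and -0.11 for numbers 1 to 4, below 0 in each. The medians of all genes in that length range were -0.07, -0.17, -0.28 and 0.07. Without negative library 3, the unblocked median went from -0.31 to -0.16; without number 3, the blocked median was -0.20. The Snrp difference was thus smaller without that library, or without number 3. With the block and the length correction, the median changed little, from -0.11 with all numbers to -0.10 without number 3.

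**Figure D4:**
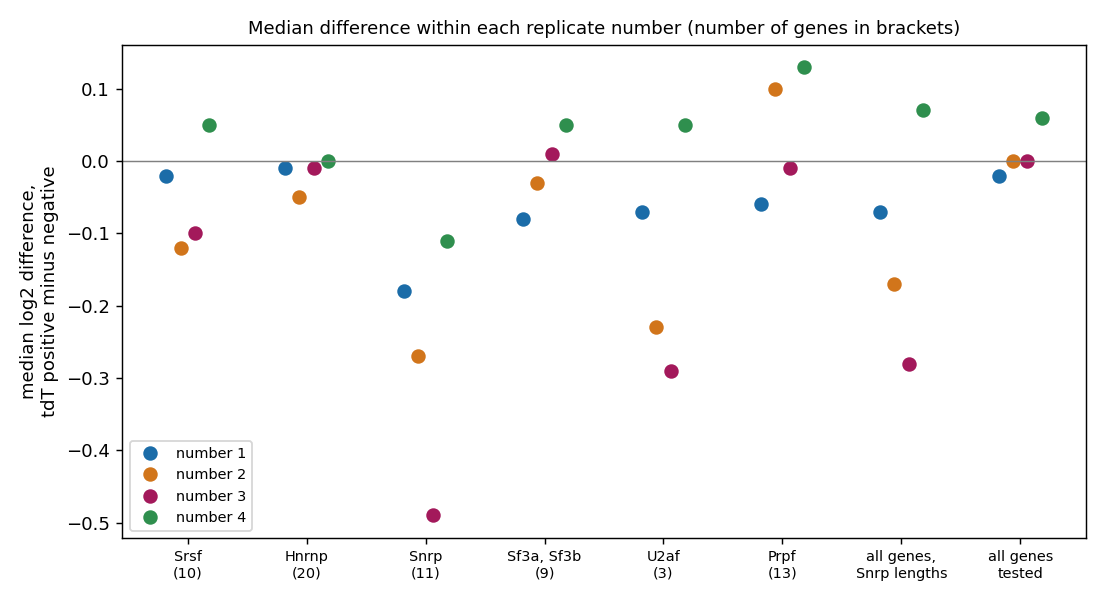
Median log2 difference between the tdT-positive and tdT-negative library of each number (vertical axis; colours mark numbers 1 to 4), for each subfamily, all genes in the length range of the Snrp genes and all genes tested (horizontal axis). The Snrp medians run from -0.49 in number 3 to -0.11 in number 4. They lie below those of all genes in the Snrp length range in each number, but those genes are longer in the median (1142 against 813 bases).

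Some members share stretches of sequence with other annotated genes, so that reads may have been assigned to another gene or dropped. Matches on either strand were counted, so a gene that overlaps a member at the same place cannot be told from a copy elsewhere. For U2af1l4 and Srsf4, 0 of the sharing genes were pseudogenes. Of the 50-base words in the longest coding transcript of each member (GENCODE M21), a median of 5.06% also occurred in a transcript of another gene, and 15 members shared none. The share was at least 50% for 6 members: 97.2% for U2af1l4, 89.5% for Snrpf, 67.3% for Hnrnpf, 65.4% for Srsf4, 59.4% for U2af1 and 51.2% for Sf3b4. Values of these genes are therefore uncertain, and so are those of Hnrnpa1 (46.4%, shared with 19 pseudogenes) and Hnrnpa3 (28.2%, with 42 pseudogenes). Both of the latter, known as abundant nuclear proteins, stood at only 4.00 and 3.10 RPKM. The median level was 11.4 RPKM in the 6 genes and 25.9 RPKM in the 40 members that shared under 10%. Among the members called, Srsf3 shared 31.5% of its words, with 4 pseudogenes among the sharers, Snrpd1 13.8% and Hnrnpc 12.3%.

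**Figure D5:**
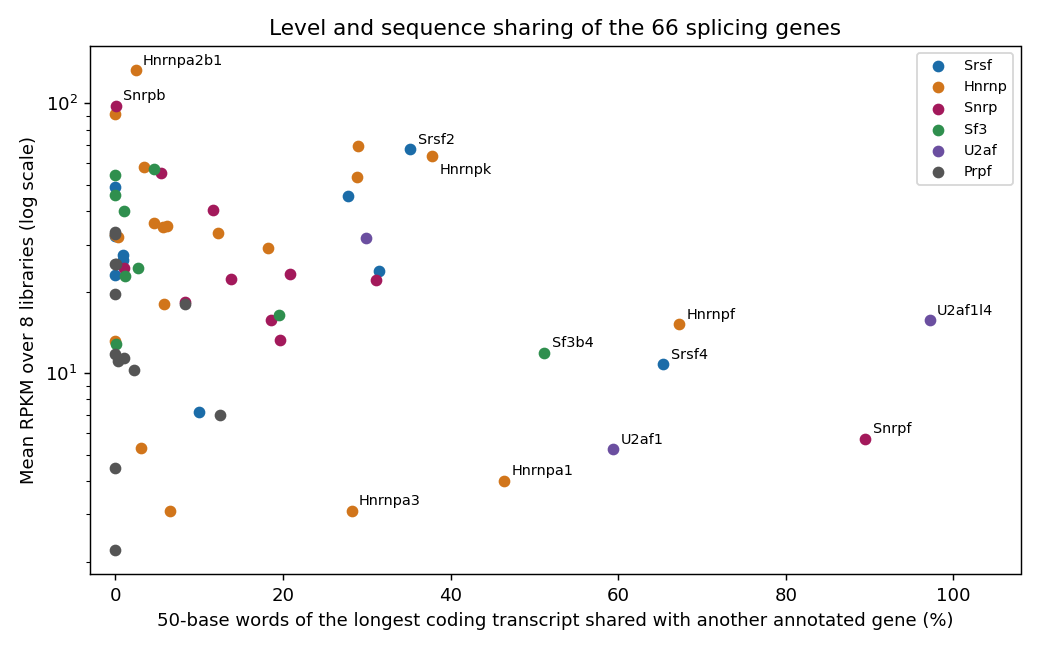
Level of each member (mean RPKM over 8 libraries, vertical log axis) against the share of its 50-base words found in transcripts of other genes (horizontal axis, percent). The 6 members at 50% or more have a median of 11.4 RPKM and the 40 under 10% a median of 25.9 RPKM.

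Partners of the members, taken from 6 lists of splicing genes outside the symbol rule, gave few calls. No gene of these lists passed without the block, so the calls that follow are those of the blocked fit, in which 8.03% of all genes were higher and 7.81% lower. Of 13 kinases and SR-like coactivators, 4 rose and 1 fell. Clk2, a kinase that phosphorylates SR proteins, rose from 15.8, 16.7, 18.2 and 20.1 CPM in the negative to 22.1, 21.2, 22.3 and 26.8 CPM in the positive libraries (0.38 ± 0.07, adjusted p = 0.0144, the same with length corrected). Acin1, an SR-like protein of the exon junction, rose by 0.25 ± 0.06, and the SR-like protein Tra2b, which activates exons, fell by 0.35 ± 0.09 on the log2 scale (adjusted p = 0.0315 and 0.0349). With length corrected Tra2b still passed, and Acin1, 4967 bases long, did not (0.16, adjusted p = 0.0919). The other 2 that rose, Srrm2 (0.32) and Son (0.28), scaffolds of nuclear speckles, are named because they complete the count; they are 8600 and 9278 bases long, and neither passed with length corrected.

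Among 22 further proteins of the snRNPs, 1 fell, Lsm6 (-0.34 ± 0.09, adjusted p = 0.0404), a subunit of the ring on U6 RNA, and the median was -0.09. Of 13 genes of the SMN complex and of Sm methylation, which load the Sm ring onto RNA, 1 fell: Clns1a, the chaperone that hands Sm proteins to that complex (-0.22 ± 0.06, adjusted p = 0.0395), with a median of -0.14. None of the 21 genes of the Prpf19 complex and of factors for the splicing steps passed. Of 30 other splicing regulators 1 rose and 2 fell. Celf1, 7965 bases long, rose (0.23 ± 0.05, adjusted p = 0.0308) but did not pass with length corrected (0.08, adjusted p = 0.231). Rbfox2 fell (-0.57 ± 0.14, adjusted p = 0.0366), and Mbnl3, a muscleblind protein at 0.0767 to 0.310 CPM in the positive and 0.596 to 1.52 CPM in the negative libraries, fell by 2.22 ± 0.26 on the log2 scale (adjusted p = 0.00852). Of 11 genes of the exon junction complex and export, Casc3 rose (0.30 ± 0.07, adjusted p = 0.0317) and the helicase gene Ddx39 fell (-0.27 ± 0.05, adjusted p = 0.0215).

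Markers of other cells moved with the groups as well, in the fit with the block. Without the block, no gene of these lists passed. Of 14 stromal and fibroblast genes 13 fell in the blocked fit, and their summed level was 71.3 to 181 CPM in the positive and 307 to 2870 CPM in the negative libraries. Of 14 genes of dividing cells 5 fell, with sums of 164 to 210 against 203 to 267 CPM. Of 7 neutrophil genes 2 rose and 4 fell (summed level 2750 to 4370 against 1350 to 3690 CPM). Most of that sum is Lcn2 (2720 to 4320 against 1320 to 3430 CPM), which macrophages are also known to make and which rose with Mmp8, while S100a9, Ngp, Ltf and Prtn3 fell and Prtn3 was at 0 in all positive libraries. Of 7 osteoclast genes 4 fell (60.1 to 114 against 80.2 to 1400 CPM). The upper end is negative library 4, with Acp5 at 874 and Ctsk at 324 CPM. In the other negative libraries these were at 67.5 to 119 and 3.74 to 19.2 CPM, and Acp5 was not called. Of 8 macrophage genes 1 rose, Mertk, and their sums of 14200 to 18500 and 12000 to 21500 CPM overlapped. The part of these cells in the differences of the splicing genes was not tested, and in bulk RNA fewer cells of a type and less RNA per cell cannot be told apart.

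Of 6 RNAs listed for nuclear retention or RNA quality, 2 rose. Neat1 and Malat1, long noncoding RNAs retained in nuclear paraspeckles and speckles, rose by 0.88 (adjusted p = 0.0150) and 0.91 (adjusted p = 0.0228) in the blocked fit. With length corrected Malat1 still passed (0.78, adjusted p = 0.0378) and Neat1, 20771 bases long, did not (0.61, adjusted p = 0.0723). The nuclear RNAs Xist (-0.03, adjusted p = 0.878) and Kcnq1ot1 (0.52, adjusted p = 0.286) did not pass in the blocked fit. Rn45s, the ribosomal RNA precursor, was at 142000 CPM in positive library 3 and at 3130 to 4820 CPM in the other positive libraries. In the negative libraries it was at 3890 to 7470 CPM. Lars2, of the same list, was at 11000 CPM in positive library 3. It was at 250 to 764 CPM in the other positive and at 260 to 390 CPM in the negative libraries. Positive library 3 was the highest positive library for Srsf3, Hnrnpc and Snrpa1. Whether nuclear RNA or ribosomal carry-over took part in the members' values was not tested.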

How the data were processed

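Polyadenylated RNA of 4 tdT-positive and 4 tdT-negative macrophage libraries had been sequenced, and the deposited table, made by the authors, holds whole-number counts per gene with Entrez identifiers, symbols and lengths for 17823 genes, of which 8 have no symbol. The submitters' processing notes name STAR and mm10. For the counting tool, the annotation and the strand setting, nothing is stated in the sources used here, and genes that overlap, lie antisense or have near-identical copies are therefore uncertain. Columns were matched to samples through the sample descriptions, and groups come from the titles. No per-sample column was left without a sample.

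Members and gene lists were chosen with earlier results of these data known. Named per subfamily were the 4 members with the smallest p in the blocked fit, the member with the highest RPKM and any member called without the block, and up to 3 genes per partner list; Srsf1, Srsf5, Srsf6, Srsf10, Hnrnpa3, Hnrnpu, Hnrnph1, Sf3b1, Prpf3, Prpf19, Prpf38b, Prpf39, Srrm2, Son, Clk1, Clk4 and the other Snrp and sequence-sharing genes were named after their values were seen. Of the members, 1 is counted but not reported here by itself.

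In edgeR 4.0.16, filterByExpr at its default settings (counts of 10, total of 15) kept 12610 genes, which were fitted over all 8 libraries with the quasi-likelihood test, R 4.3.3, TMM scaling (factors 0.865 to 1.15) and Benjamini-Hochberg adjustment over all genes at 0.05. Totals of 49850537 to 58516454 counts per library limit precision little beside the spread between libraries. The replicate number, shared between groups in the titles, was then added as a block. Deviations from the group means correlated by 0.60, 0.25, 0.58 and 0.56 between libraries of numbers 1 to 4, all above 0.1, so blocked values are given where they change a call. Length was corrected by a loess curve (span 0.5) of each library's log2 ratio to the mean against log2 length, used as offsets. No library repeated another (chi-square per degree of freedom 54 to 759 within groups). Alternatives were other scalings and filters, a threshold of 0.1, limma 3.58.1 voom, DESeq2 1.42.0 and leaving out libraries; the script was tested on simulated data. Coordinates and promoters are from RefSeq GRCm38.p6. Sequence sharing was computed from GENCODE M21 transcripts.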

Additional observations from a re-analysis of the deposited data

Results flagged for a closer look

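In 18 of 130 sets of 4 libraries (13.8%, from 65 members in both groups), 1 library lay far from the other 3 of its group. Far was judged relative to the range of the set, where chance gives about 1 in 20 for a single set. The 130 sets share the same libraries and are not independent, so their share is no test against that rate. In tdT-negative library 3, Snrpd1 stood at 28.8 CPM (17.3 to 19.2 in the other 3), Snrpd2 at 31.8 (18.4 to 19.0), Snrpg at 9.97 (5.94 to 6.33), Srsf7 at 106 (68.4 to 71.5) and Srsf10 at 47.8 (38.3 to 39.3), all high. In tdT-positive library 3, Srsf10 at 43.6 CPM, Hnrnpd at 153, Hnrnpll at 46.2, Sf3b4 at 24.9 and Snrpb at 131 were high.

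In tdT-positive library 4, Hnrnpa1 at 12 CPM (7.86 to 8.17 in the other 3), Hnrnph3 at 16.9 (11 to 11.8) and Prpf40b at 10.1 (7.03 to 7.13) were high. In tdT-positive library 2, Sf3a3 at 37.8 CPM and Snrpc at 8.22 were low, and in tdT-positive library 1, Prpf18 at 39.6 CPM was high. In tdT-negative library 4, Prpf3 at 25.2 CPM and Srsf9 at 48.6 CPM were low. Of the 18 sets, 14 had a high library.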

How the results depend on the processing

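No member was called under any scaling, filter, voom, the wider threshold of 0.1 or the length correction without the block. The replicate block, the block with length correction and the block with library totals each called 5 members, and the DESeq2 Wald test 1. Calls over all genes were 1998, 1692, 1418 and 921 in these fits, 216 with no filter and 524 at a threshold of 0.1, against 3. With library totals the median of all members was -0.10 (-0.10 with the block), of Hnrnp -0.07 (-0.07) and of Sf3 -0.10 (-0.09). Upper-quartile factors gave Hnrnp -0.02, and the length correction gave Hnrnp -0.03 and Snrp -0.11, with and without the block. The cause of these shifts was not tested; library totals moved the median of all genes by -0.08.

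Leaving out libraries in turn without the block gave 2 to 456 calls over all genes (456 without tdT-negative 1, 225 without tdT-negative 4) and 0 to 0 members. With the block, leaving out number 1, 2, 3 or 4 gave 1023, 347, 355 and 2535 genes and 0 to 13 members, and with block and length correction, added after seeing the data, 659, 467, 295 and 1894 genes in that order and 0 to 6 members. In that last series the Snrp median was -0.13 without number 1. Without the block, medians ranged from -0.06 to -0.02 (all members), -0.05 to 0.02 (Hnrnp), 0.06 to 0.14 (Prpf), -0.06 to -0.01 (Sf3), -0.35 to -0.16 (Snrp), -0.10 to 0.00 (Srsf) and -0.20 to -0.08 (U2af). With the block they ranged from -0.06 to -0.01, -0.03 to 0.01, 0.07 to 0.13, -0.07 to -0.01, -0.32 to -0.20, -0.06 to 0.00 and -0.19 to -0.10, and with the length correction as well from -0.05 to -0.04, -0.08 to -0.02, 0.03 to 0.06, -0.07 to -0.04, -0.16 to -0.10, -0.04 to 0.00 and -0.01 to 0.03.

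Of 756 values for the 28 named members under 27 settings, 689 kept direction and side of the threshold, 28 passed where they had not, and 39 changed sign, all of uncalled genes near 0. Srsf2 was at 0.01 with length correction, with or without the block, 0.00 with no filter and up to 0.05 without a library. Snrpb was at 0.05 with length correction and 0.01 to 0.08 without a library or number. Sf3b2 was at 0.00 with the block and voom, 0.01 with no filter and 0.01 to 0.05 without a library. U2af1l4 was at 0.00 with length correction and 0.00 to 0.03 without a number. U2af2 was at -0.04 with library totals, -0.01 with upper-quartile factors, -0.05 with block and totals and -0.01 to 0.00 without a library. Prpf8 was at 0.00 with no filter and 0.04 to 0.06 without a library or number.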

Other observations

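Prpf39, which codes for a U1-associated factor, had the same signs by number as Srsf5 and Srsf11. It stood at 34.1, 32.3, 22.3 and 35.8 CPM in the tdT-positive and 21.5, 22.6, 32.1 and 27.3 CPM in the tdT-negative libraries, higher in the positive library for numbers 1, 2 and 4 and lower for number 3. Hnrnph1, at 80.1, 86.6, 69.8 and 98.7 CPM against 64.0, 73.0, 83.4 and 86.1 CPM, and Prpf38b, at 83.3, 89.3, 64.6 and 86.5 CPM against 66.9, 75.0, 74.6 and 69.4 CPM, had them as well. The SR protein kinase genes Clk1 (61.9, 56.3, 52.8 and 63.8 against 51.6, 48.3, 78.0 and 48.0 CPM) and Clk4 (21.3, 17.0, 18.2 and 19.8 against 14.8, 13.8, 22.7 and 15.6 CPM) did too. These genes were picked after their values were seen, and none passed the test over all 8 libraries, with or without the block. Of the members among them, Prpf39 passed in the blocked fit without number 3. That fit leaves out the only number in which Prpf39 was lower, so the call is not a result apart from the pattern it was picked for.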
